A study of Mus musculus with 66 samples.

Results

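The genes described here are 7 transcription factors of clock output in the nucleus accumbens (NAcc), the ventral part of the striatum. Dbp, Tef and Hlf are the PAR bZIP factors, Nfil3 is the bZIP factor that competes with them, and Bhlhe40, Bhlhe41 and Ciart act on E-boxes. The rows were chosen by gene symbol from the 24138 genes of the FPKM table. The rule uses no value, though earlier results of these data were known. Each symbol occurred once, and all 7 genes reached 1 FPKM in at least 1 library, as did 14643 genes in all.

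In the circadian clock the activators CLOCK and BMAL1 (the product of Arntl) bind E-boxes and drive the Per, Cry and Nr1d genes, whose products repress them in turn. PAR bZIP factors are driven through E-boxes and bind D-boxes in other genes, where they activate transcription and Nfil3 represses it. Nfil3 is itself repressed by the Nr1d proteins. Bhlhe40 and Bhlhe41, also called DEC1 and DEC2, and Ciart, also called CHRONO, repress transcription at E-boxes. In mouse tissues Dbp RNA usually peaks late in the light phase, and Nfil3 RNA in the opposite part of the day.

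Wild-type (WT) mice and iMSN-D2RKO mice were given saline or 20 mg/kg cocaine by i.p. injection at zeitgeber time (ZT) 3, early in the light and resting phase, and NAcc punches were taken at ZT7, ZT11, ZT15, ZT19 and ZT23. Punches of ZT3 make up the first time point, and their 3 libraries per genotype are shared by the saline and the cocaine series. There were 3 libraries from separate mice in each of 22 groups, 66 libraries in all. In iMSN-D2RKO mice floxed D2 receptor alleles are deleted by a Cre under the D1 receptor promoter, which acts in precursors of the indirect pathway medium spiny neurons (iMSNs). The mating gives Cre-negative animals with the same floxed alleles, while the labels call the controls wild type. The labels give the strain as C57BL/6, and the study's methods give males of a C57BL/6J background, 3 to 5 months old. Values are FPKM, fragments scaled to transcript length and to library size, so levels of different genes can be compared per length.

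Library properties touched several results. The FPKM sum per library lay between 364078 and 465297, except for iMSN-D2RKO saline ZT7 replicate 1 with 690048. Libraries were placed along the leading axis of the deviations from group means. On this library score 13 libraries stood apart, 6 WT and 7 iMSN-D2RKO. Of these set-apart libraries 10 were from ZT19 or ZT23 and 0 from ZT3 or ZT11, so they fall unevenly over the day. Drd2 itself had a median of 121 FPKM in 27 WT and 107 in 26 iMSN-D2RKO libraries outside the set-apart ones. It ranged from 99.1 to 239.6 and from 78.03 to 375 FPKM, so the gene's FPKM does not show the deletion, and the genotypes are those of the labels. In the set-apart libraries the median of Drd2 was higher, at 228 FPKM in 6 WT and 229 in 7 iMSN-D2RKO libraries. All 10 medium spiny neuron markers were well above 0 in every library, while the sum of the cortical neuron markers Slc17a7, Tbr1 and Neurod6 ran from 3.26 to 273 FPKM. In such bulk tissue fewer cells of a type and less RNA per cell cannot be told apart.

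On GRCm38, the build of the files (mm10), with GENCODE positions, Dbp lies on the plus strand at chr7:45705088-45710203, Tef on the plus strand at chr15:81802421-81826863 and Hlf on the minus strand at chr11:90336536-90390895. Nfil3 lies on the minus strand at chr13:52967209-52981073. Bhlhe40 lies on the plus strand at chr6:108660629-108666925 and Bhlhe41 on the minus strand at chr6:145858243-145865558, both on chromosome 6, and Ciart on the minus strand at chr3:95878503-95882251. Exons of Dbp overlap those of Sphk2 on the other strand, and exons of Tef, Bhlhe40 and Bhlhe41 overlap antisense or unclassified transcripts (Gm17597, 0610040F04Rik and Gm43909). The libraries were stranded, but whether the counting used strand is not given in the sources used here. If it did not, reads of these partners would count towards the genes.

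Because E-boxes and D-boxes are the elements at which these 7 factors act, the promoter windows of RefSeq (GRCm38.p6, 250 bases before to 50 after each start) were searched for the E-box CACGTG and the D-boxes TTATGTAA and TTACGTAA on both strands. No motif contains another. Windows were found for 6 of the 7 genes, with 2 windows for Tef, and Bhlhe40 had none. E-boxes stood in the windows of Ciart, Bhlhe41 and Tef, while the windows of Dbp, Hlf and Nfil3 held none of the 3 motifs. Of 32851 windows of all genes, 7.15% hold at least 1 E-box and 29 windows (0.0883%) hold 3 or more, as the Ciart window does. TTATGTAA is in 0.938% and TTACGTAA in 0.119% of all windows. A match describes the letters only. ROR elements, through which Nr1d proteins are known to repress and ROR proteins to drive Nfil3, were not searched. The windows with an E-box are printed 5′ to 3′ on the gene's strand with the E-boxes in capitals, and that of Dbp follows as the gene of high amplitude without one.
Ciart, chr3:95882179-95882478, minus strand: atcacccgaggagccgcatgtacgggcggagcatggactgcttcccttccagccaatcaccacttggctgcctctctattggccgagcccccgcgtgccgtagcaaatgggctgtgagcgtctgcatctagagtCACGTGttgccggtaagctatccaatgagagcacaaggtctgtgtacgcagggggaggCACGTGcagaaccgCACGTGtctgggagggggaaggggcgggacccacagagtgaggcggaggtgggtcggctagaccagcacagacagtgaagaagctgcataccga
Bhlhe41, chr6:145865371-145865670, minus strand: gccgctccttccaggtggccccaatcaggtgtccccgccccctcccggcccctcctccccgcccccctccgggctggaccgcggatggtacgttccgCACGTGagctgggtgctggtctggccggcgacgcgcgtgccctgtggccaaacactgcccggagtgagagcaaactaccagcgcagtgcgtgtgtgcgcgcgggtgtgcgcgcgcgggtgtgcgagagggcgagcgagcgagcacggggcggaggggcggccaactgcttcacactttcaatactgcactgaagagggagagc
Tef, first window, chr15:81802423-81802722, plus strand: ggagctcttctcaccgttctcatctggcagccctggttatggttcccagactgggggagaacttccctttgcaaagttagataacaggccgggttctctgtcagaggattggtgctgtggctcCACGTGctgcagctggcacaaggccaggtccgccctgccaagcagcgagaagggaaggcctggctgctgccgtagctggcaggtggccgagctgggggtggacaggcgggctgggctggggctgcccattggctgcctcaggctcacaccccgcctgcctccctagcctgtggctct
Tef, second window, chr15:81811164-81811463, plus strand: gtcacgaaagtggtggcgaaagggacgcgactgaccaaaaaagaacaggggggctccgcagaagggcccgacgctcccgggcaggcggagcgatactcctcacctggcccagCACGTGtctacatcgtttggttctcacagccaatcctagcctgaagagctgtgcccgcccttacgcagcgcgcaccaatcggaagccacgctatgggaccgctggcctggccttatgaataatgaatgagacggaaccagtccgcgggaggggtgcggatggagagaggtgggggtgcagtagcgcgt
Dbp, chr7:45704997-45705296, plus strand: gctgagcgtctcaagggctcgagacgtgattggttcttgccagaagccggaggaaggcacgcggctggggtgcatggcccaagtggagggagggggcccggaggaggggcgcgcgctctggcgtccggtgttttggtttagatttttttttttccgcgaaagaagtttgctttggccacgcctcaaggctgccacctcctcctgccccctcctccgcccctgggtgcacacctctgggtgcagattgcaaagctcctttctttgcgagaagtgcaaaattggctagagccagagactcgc
In the Ciart window the E-boxes begin at -116, -58 and -44 from the start site. That of Bhlhe41 begins at -153, and those of Tef at -127 and -138 from the 2 starts.

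Over all 66 libraries the PAR bZIP factors were the most abundant members. Dbp ran from 46.5 to 392 FPKM with a median of 130.3, Tef from 78.2 to 209.97 FPKM with a median of 126 and Hlf from 27.4 to 84.1 FPKM with a median of 44.8. The E-box factors were lower, with medians of 17.1 FPKM for Bhlhe40, 12.6 for Bhlhe41 and 9.97 for Ciart, and Nfil3 was lowest, from 1.92 to 6.20 FPKM with a median of 3.05. The ranges of Dbp and Tef overlapped widely, as did those of Bhlhe40, Bhlhe41 and Ciart, whereas every Nfil3 value was below every Hlf, Bhlhe40 and Bhlhe41 value. At these levels the log2(FPKM + 1) scale used in the tests understates changes of Nfil3 more than those of the others.

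**Figure D1:**
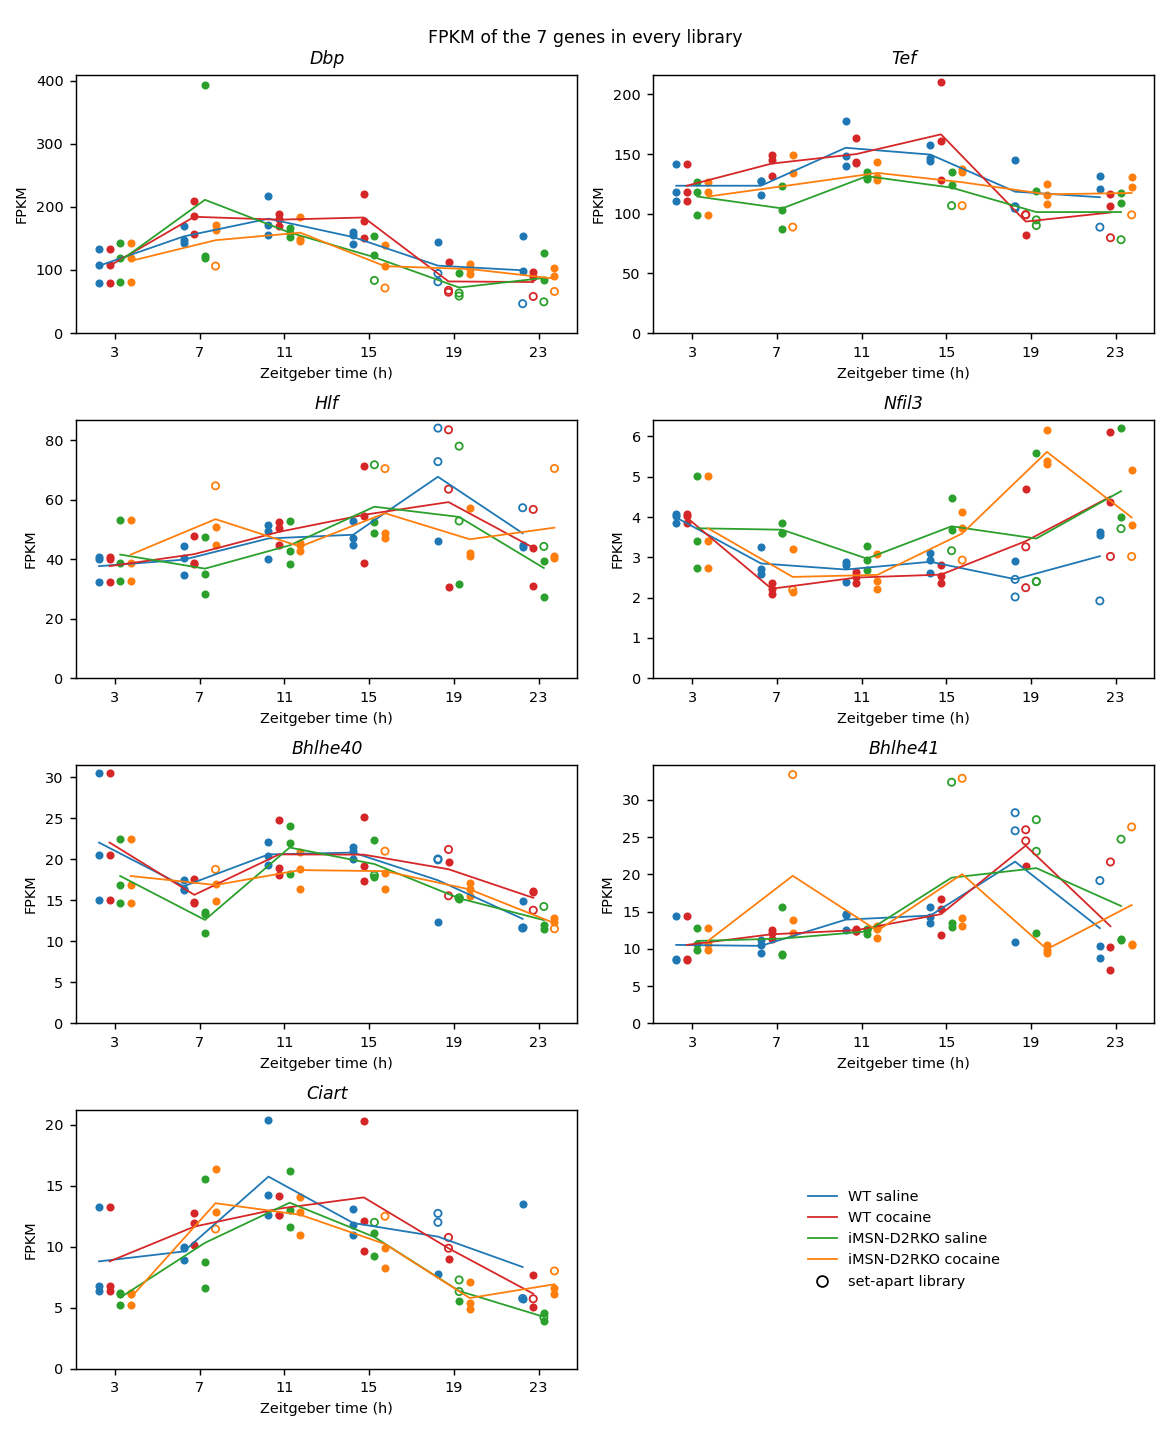
FPKM of each gene (vertical axis) against zeitgeber time in hours, with 1 point per library, lines through the group means, and open circles for the 13 set-apart libraries; points of the 4 series are shifted sideways, and the ZT3 libraries are drawn in both series of their genotype. In all 4 series the means of Dbp and Ciart are higher at ZT11 than at ZT23, and those of Nfil3 lower. The lowest Nfil3 mean of WT saline is at ZT19. The highest Bhlhe41 values, up to 33.4 FPKM, are open circles.

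Did the members cycle over the day? One 24 h cosine was fitted per gene to log2(FPKM + 1) over all 66 libraries with limma, with genotype, treatment and their interaction as terms. All 7 members passed the F test at an adjusted p under 0.05, but so did 51.03% of the genes tested. Without the 13 set-apart libraries all 7 passed again, while 9.998% of all genes did. The median amplitude of the 7 genes was 0.24 on the log2 scale, against 0.13 over all genes. In order of the fitted peak, Dbp came first at ZT9.81 ± 0.508 h (± SE), followed by Ciart at ZT11.4 ± 0.416 h and Tef at ZT11.4 ± 0.732 h, and these last differed by less than their SE. Bhlhe40 peaked at ZT12.7 ± 0.698 h, Hlf at ZT16.4 ± 0.969 h and Bhlhe41 at ZT17.1 ± 1.10 h. Nfil3 came last, at ZT22.5 ± 0.946 h. Hlf and Bhlhe41 moved most when the set-apart libraries were left out, to ZT13.5 ± 1.02 h and ZT13.7 ± 0.799 h, next to Tef and Bhlhe40.

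**Figure D2:**
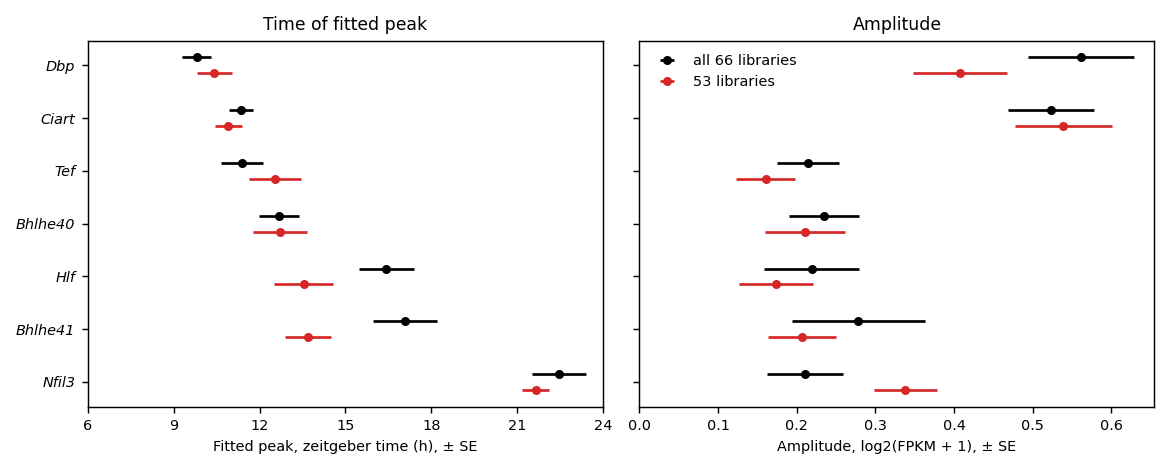
Left, fitted peak of each gene in zeitgeber hours, and right, amplitude on the log2(FPKM + 1) scale, both ± SE, from all 66 libraries (black) and from the 53 outside the set-apart ones (red). With 53 libraries 6 genes peak between ZT10.4 and ZT13.7, and Nfil3 at ZT21.6.

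Dbp, an activator at D-boxes and a direct E-box target, showed the highest amplitude with all libraries, 0.56 ± 0.0675 (adjusted p = 9.36e-08, limma). In WT saline its FPKM was 133, 79.2 and 108 at ZT3, 143, 169 and 147 at ZT7, and 171, 217 and 155 at ZT11. Later it was 161, 141 and 155 at ZT15, 94.3, 81.3 and 145 at ZT19, and 46.5, 98.03 and 154 at ZT23. Each ZT7, ZT11 and ZT15 value was above 2 of the 3 values at ZT19 and at ZT23. In WT cocaine it was 186, 209 and 158 at ZT7, 188, 180.4 and 170.4 at ZT11, and 221, 151 and 178 at ZT15, then 64.7, 113 and 67.7 at ZT19, and 96.1, 88.4 and 58.02 at ZT23. All 9 values at ZT7, ZT11 and ZT15 were above all 6 at ZT19 and ZT23.

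In iMSN-D2RKO Dbp started at 119, 80.3 and 143 FPKM at ZT3. In saline it was 392, 119 and 122 at ZT7, 159, 152 and 166 at ZT11, and 123, 83.4 and 154 at ZT15, then 63.4, 94.4 and 58.6 at ZT19, and 84.8, 128 and 49.5 at ZT23. The value of 392 is that of replicate 1 at ZT7, the library with the high FPKM sum. In cocaine it was 172, 106 and 164 at ZT7, 148, 183 and 146 at ZT11, and 139.8, 107 and 71.4 at ZT15, then 109, 94.1 and 101 at ZT19, and 65.9, 103 and 89.8 at ZT23. The 3 libraries of ZT11 were above all of ZT19 and ZT23 in both series of this genotype. In the 10 groups that hold both kinds of library, Dbp was lower in the set-apart ones in all 10, by a median of -0.72 on the log2 scale. Without them its amplitude was 0.41 ± 0.0598 (adjusted p = 3.73e-05, limma), with the peak at ZT10.4 ± 0.600 h.

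Tef, a PAR bZIP factor that binds the same D-boxes, had a lower amplitude of 0.21 ± 0.0396 (adjusted p = 1.88e-04, limma). In WT saline its group means ± SD (n = 3) were 123 ± 16.2 at ZT3, 123 ± 6.65 at ZT7, 155 ± 20.1 at ZT11, 149.5 ± 7.41 at ZT15, 118 ± 23.004 at ZT19 and 114 ± 22.4 at ZT23. Its highest value, 209.97 FPKM, was WT cocaine ZT15 replicate 3, beside 161 and 128 in the other two. The iMSN-D2RKO saline means were 114 ± 14.3 at ZT3, 104 ± 17.9 at ZT7, 131 ± 3.21 at ZT11, 122 ± 14.1 at ZT15, 101 ± 15.6 at ZT19 and 101 ± 20.5 at ZT23. The highest mean was at ZT11 in 3 of the 4 series and at ZT15 in WT cocaine. Tef was lower in the set-apart libraries in 9 of 10 groups, by a median of -0.41, and without them its amplitude was 0.16 ± 0.0375 (adjusted p = 0.0113, limma).

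Hlf, the third PAR bZIP factor, had an amplitude of 0.22 ± 0.0604 (adjusted p = 0.00860, limma). Its WT saline means were 37.7 ± 4.63 at ZT3, 39.9 ± 5.03 at ZT7, 47.01 ± 6.17 at ZT11, 48.3 ± 4.13 at ZT15, 67.7 ± 19.4 at ZT19 and 48.8 ± 7.43 at ZT23 (SD, n = 3). At ZT19 the values were 84.1, 72.9 and 46.3 FPKM, and the 2 high ones are set-apart libraries. The WT cocaine values at ZT19 split alike, 63.6, 30.6 and 83.6, with replicates 1 and 3 set apart. Hlf was higher in the set-apart libraries in all 10 groups, by a median of 0.58. Without them the amplitude was 0.17 ± 0.0468 (adjusted p = 0.0310, limma), and leaving out replicate 1 or replicate 3 of every group ended the call (adjusted p = 0.153 and 0.146).

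**Figure D3:**
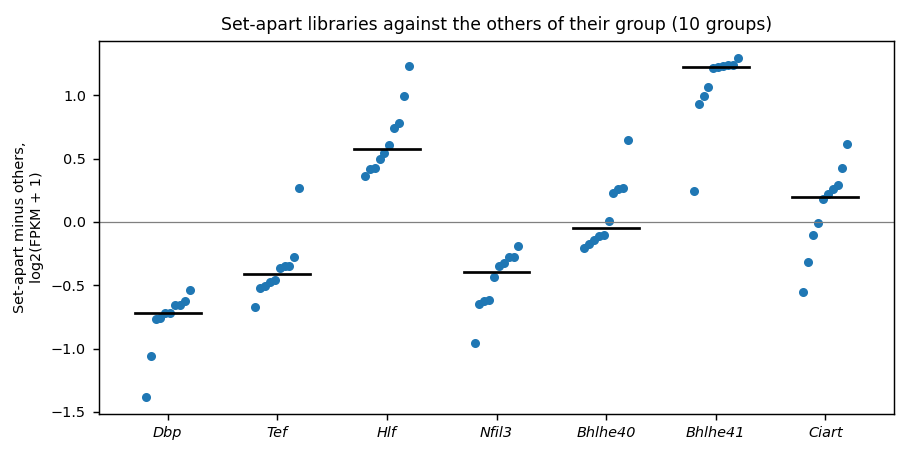
Mean log2(FPKM + 1) of the set-apart libraries minus that of the other libraries of the same group, 1 point for each of the 10 groups that hold both, with the median as a line. Hlf and Bhlhe41 lie above 0 in all 10 groups, Dbp and Nfil3 below 0 in all 10, and Bhlhe40 and Ciart on both sides.

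Nfil3, the repressor at D-boxes, ran opposite to Dbp in the pooled fit, but in WT saline both had low means at ZT19 (2.46 and 107 FPKM). In WT saline its FPKM was 4.08, 3.84 and 4.04 at ZT3, 2.71, 2.57 and 3.26 at ZT7, and 2.89, 2.81 and 2.39 at ZT11, then 2.94, 2.62 and 3.11 at ZT15, 2.45, 2.02 and 2.90 at ZT19, and 1.92, 3.55 and 3.62 at ZT23. All 3 values at ZT3 were above all others up to ZT19. In WT cocaine they were 2.36, 2.21 and 2.09 at ZT7, 2.52, 2.35 and 2.63 at ZT11, and 2.81, 2.54 and 2.36 at ZT15, then 2.25, 4.70 and 3.26 at ZT19, and 4.38, 6.11 and 3.02 at ZT23. Its lowest WT group mean was ZT7 in cocaine, 2.22 ± 0.134, and the highest was ZT23 in cocaine, 4.51 ± 1.55 (SD, n = 3).

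In iMSN-D2RKO mice Nfil3 was at 3.41, 5.01 and 2.74 FPKM at ZT3. In saline it was 3.84, 3.61 and 3.61 at ZT7, 3.29, 2.93 and 2.69 at ZT11, and 4.48, 3.16 and 3.67 at ZT15, then 2.40, 5.60 and 2.40 at ZT19, and 4.01, 6.20 and 3.71 at ZT23. In cocaine it was 2.14, 2.19 and 3.21 at ZT7, 2.20, 3.08 and 2.41 at ZT11, and 4.12, 3.72 and 2.93 at ZT15, then 5.38, 5.31 and 6.16 at ZT19, and 3.02, 3.79 and 5.16 at ZT23. The 3 cocaine values at ZT19 were above all cocaine values at ZT7, ZT11 and ZT15. The pooled amplitude was 0.21 ± 0.0481 (adjusted p = 0.00172, limma). Nfil3 was lower in the set-apart libraries in all 10 groups, by a median of -0.39, and without them the amplitude was 0.34 ± 0.0403 (adjusted p = 6.86e-07, limma). Leaving out replicate 2 of every group ended the call (adjusted p = 0.104). As a description over 22 group means, which share libraries, Nfil3 and Dbp had r = -0.60, and r = -0.90 without the set-apart libraries.

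Ciart, a repressor of CLOCK and BMAL1, had an amplitude of 0.52 ± 0.0549 (adjusted p = 3.44e-09, limma) and 0.54 ± 0.0617 without the set-apart libraries (adjusted p = 3.92e-07), in which it was higher in 6 and lower in 4 of 10 groups. In WT saline its FPKM was 13.3, 6.38 and 6.74 at ZT3, 8.90, 10.01 and 9.93 at ZT7, and 14.3, 20.4 and 12.6 at ZT11, then 13.1, 10.9 and 11.8 at ZT15, 12.003, 12.7 and 7.74 at ZT19, and 5.75, 5.74 and 13.5 at ZT23. The single high values at ZT3 and ZT23 belong to replicates 1 and 3. In WT cocaine it was 10.2, 12.8 and 11.99 at ZT7, 12.6, 14.1 and 12.6 at ZT11, and 12.1, 9.68 and 20.4 at ZT15, then 10.8, 8.98 and 9.88 at ZT19, and 7.67, 5.03 and 5.72 at ZT23. Each ZT7 and ZT11 value was above each ZT23 value.

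In iMSN-D2RKO mice Ciart was at 6.21, 5.19 and 6.08 FPKM at ZT3. In saline it was 15.6, 6.64 and 8.72 at ZT7, 16.2, 11.6 and 13.05 at ZT11, and 9.28, 12.003 and 11.1 at ZT15, then 7.28, 5.50 and 6.32 at ZT19, and 4.58, 3.92 and 4.22 at ZT23. The mean at ZT11, 13.6 ± 2.35, was 3.21 times that at ZT23, 4.24 ± 0.330 (SD, n = 3). In cocaine it was 16.4, 11.5 and 12.8 at ZT7, 12.8, 14.1 and 10.9 at ZT11, and 9.90, 8.26 and 12.5 at ZT15, then 4.85, 5.37 and 7.14 at ZT19, and 8.01, 6.62 and 6.13 at ZT23. In both series all values at ZT11 were above all values at ZT3, ZT19 and ZT23.

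Bhlhe40 had an amplitude of 0.24 ± 0.0447 (adjusted p = 2.53e-04, limma), and 0.21 ± 0.0509 without the set-apart libraries (adjusted p = 0.0151). Its WT saline means were 22.1 ± 7.86 at ZT3, 16.7 ± 0.674 at ZT7, 20.6 ± 1.40 at ZT11, 20.8 ± 0.733 at ZT15, 17.5 ± 4.40 at ZT19 and 12.7 ± 1.84 at ZT23 (SD, n = 3). The wide ZT3 group held 30.6, 20.5 and 15.1 FPKM. In iMSN-D2RKO saline the means were 17.97 ± 4.01 at ZT3, 12.6 ± 1.42 at ZT7, 21.4 ± 3.01 at ZT11, 19.4 ± 2.59 at ZT15, 15.3 ± 0.0451 at ZT19 and 12.6 ± 1.46 at ZT23. ZT23 had the lowest mean in all 4 series, between 12.2 and 15.3 FPKM.

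Bhlhe41, the paralogue of Bhlhe40, was the member most tied to the set-apart libraries. It was higher in them in all 10 groups, by a median of 1.22 on the log2 scale. In WT saline it was 14.3, 8.56 and 8.70 at ZT3, 10.5, 9.50 and 11.2 at ZT7, and 14.5, 14.7 and 12.6 at ZT11, then 15.6, 13.5 and 14.2 at ZT15, 25.8, 28.3 and 10.98 at ZT19, and 19.2, 8.80 and 10.4 at ZT23. Replicates 1 and 2 of ZT19 and replicate 1 of ZT23, the high ones, are set-apart libraries. In WT cocaine it was 12.5, 12.1 and 11.3 at ZT7, 12.7, 12.4 and 12.4 at ZT11, and 15.4, 11.8 and 16.7 at ZT15, then 24.5, 21.1 and 25.98 at ZT19, and 10.2, 7.21 and 21.7 at ZT23. Replicate 2 at ZT19 was high as well, at 21.1 FPKM. It is not set apart, but its library score, 15.1, was the highest of the 53 other libraries.

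In iMSN-D2RKO saline Bhlhe41 was 10.6, 9.78 and 12.8 at ZT3, 15.6, 9.14 and 9.35 at ZT7, and 12.6, 12.5 and 11.9 at ZT11, then 12.9, 32.4 and 13.4 at ZT15, 27.3, 12.1 and 23.1 at ZT19, and 11.4, 11.2 and 24.7 at ZT23. In cocaine it was 13.9, 33.4 and 12.2 at ZT7, 13.1, 12.7 and 11.5 at ZT11, and 14.1, 13.1 and 32.9 at ZT15, then 10.5, 9.49 and 9.83 at ZT19, and 26.4, 10.6 and 10.7 at ZT23. The 1 value above 25 FPKM at ZT7, at ZT15 and at ZT23 in cocaine was each time the set-apart library. The pooled amplitude was 0.28 ± 0.0848 (adjusted p = 0.0177, limma) and 0.21 ± 0.0437 without them (adjusted p = 0.00429). Leaving out replicate 1 or replicate 3 of every group ended the call (adjusted p = 0.109 and 0.178).

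Within each series, rhythm was tested with JTK_CYCLE, a rank test with an exact null distribution on periods of 20 and 24 h, called at p under 0.01, on 18 libraries at 6 time points. The exact JTK p of a gene is Bonferroni-adjusted over 11 pairs of period and phase. In WT saline 9.46% of all genes were called, and of the members only Dbp was (exact JTK p = 0.00755). Ciart (exact JTK p = 0.0108) and Hlf (exact JTK p = 0.0146) fell just outside. In WT cocaine, with 7.48% of genes called, Dbp was again the only member called (exact JTK p = 0.00173), and Ciart had an exact JTK p of 0.0154. In iMSN-D2RKO saline Ciart was called (exact JTK p = 3.13e-06) beside 2.54% of all genes, and Dbp was not (exact JTK p = 0.0410). In iMSN-D2RKO cocaine, Ciart (exact JTK p = 1.15e-04) and Nfil3 (exact JTK p = 7.55e-04) were called, beside 1.09% of all genes. Tef, Hlf, Bhlhe40 and Bhlhe41 were called in no series. The calls for Bhlhe41 and Nfil3 turned on the libraries: in WT saline without the set-apart ones their exact JTK p was 2.89e-04 and 0.00811, against 0.0410 and 0.703 with them, and Dbp lost its call there (exact JTK p = 0.0128), with 6.19% of all genes called. In WT cocaine without them Dbp had an exact JTK p of 0.0295 and Nfil3 0.00301, with 2.34% of all genes called. Ciart kept its calls in both iMSN-D2RKO series without them (exact JTK p = 2.89e-04 and 0.00243), where 1.22% and 1.88% of all genes were called. Without replicate 1 of ZT7 saline, Bhlhe41 was called in iMSN-D2RKO saline as well (exact JTK p = 0.00667), beside 2.33% of all genes. A call in one series and not in another does not show that the series differ.

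The cosine fitted within each series gives the sizes side by side, although the 2 series of a genotype share their ZT3 libraries. For Ciart the amplitude was 0.40 ± 0.12 with a peak at ZT12.7 ± 1.13 h in WT saline and 0.49 ± 0.10 with a peak at ZT11.9 ± 0.806 h in WT cocaine. In iMSN-D2RKO it was 0.72 ± 0.0849 with a peak at ZT11.4 ± 0.453 h in saline and 0.57 ± 0.0940 with a peak at ZT10.2 ± 0.626 h in cocaine. For Dbp it was 0.52 ± 0.12 with a peak at ZT10.96 ± 0.910 h in WT saline and 0.73 ± 0.11 with a peak at ZT10.4 ± 0.565 h in WT cocaine. In iMSN-D2RKO it was 0.66 ± 0.16 with a peak at ZT8.78 ± 0.934 h in saline and 0.40 ± 0.11 with a peak at ZT9.23 ± 1.003 h in cocaine. The 4 peaks lay between ZT8.78 and ZT10.96 for Dbp and between ZT10.2 and ZT12.7 for Ciart. The iMSN-D2RKO saline fits include ZT7 replicate 1, the library with the high FPKM sum. There Dbp was at 392 FPKM, beside 119 and 122 in the other replicates, and Ciart at 15.6, beside 6.64 and 8.72. Nfil3 peaked at ZT23.2 ± 0.877 h in WT cocaine and at ZT20.4 ± 0.769 h in iMSN-D2RKO cocaine, with amplitudes of 0.36 and 0.41.

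The other core clock genes place the members in the cycle. Of 13 such genes, 9 passed the pooled rhythm test and 7 did so without the set-apart libraries. Nr1d1, an E-box target and repressor, peaked at ZT9.42 ± 0.425 h (amplitude 0.38 ± 0.0383), close to Dbp. Per3 peaked at ZT12.9 ± 0.414 h and Per2 at ZT15.98 ± 0.523 h, the later members of the loop. Cry1 followed at ZT17.4 ± 0.553 h. Arntl, which encodes the activator BMAL1, peaked at ZT21.6 ± 0.488 h with an amplitude of 0.39 ± 0.0447, within an SE of Nfil3. Over the 22 group means Dbp had r = 0.89 with Nr1d1 and -0.88 with Arntl, and Nfil3 had -0.69 and 0.59. Without the set-apart libraries the values were 0.80 and -0.71 for Dbp, and -0.82 and 0.75 for Nfil3. Of the PAR bZIP effector genes Pdxk, Alas1, Por and Nr1i3, the last stayed under 1 FPKM in every library. Pdxk, pyridoxal kinase, passed with a peak at ZT10.5 ± 0.918 h and an amplitude of 0.18 ± 0.0410 (adjusted p = 0.00132, limma), but not without the set-apart libraries (adjusted p = 0.0807). Alas1 and Por did not pass (adjusted p = 0.158 and 0.841).

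Did cocaine change the members? With time point as a term and the ZT3 libraries left out, 0 of the 7 members and 0% of all genes differed between cocaine and saline in WT at an adjusted p under 0.05, and the same counts, 0 and 0%, held in iMSN-D2RKO (limma). At an unadjusted p under 0.05 the counts over all genes were 391 in WT and 472 in iMSN-D2RKO, and 0 members in each. In WT 3 members were higher and 4 lower after cocaine, with a median difference of -0.0084 on the log2 scale against 0 over all genes, and in iMSN-D2RKO 5 were higher and 2 lower, with a median of 0.04 against -0.0079. The difference of Dbp in WT was -0.0084 (95% interval -0.28 to 0.26) and that of Ciart -0.042 (95% interval -0.27 to 0.19). For Bhlhe40 it was 0.048 (95% interval -0.10 to 0.19), the narrowest interval among the members. In iMSN-D2RKO the largest was that of Hlf, 0.15 (95% interval -0.11 to 0.41), followed by Tef, 0.15 (95% interval -0.014 to 0.31). The 7 intervals together reach from -0.28 to 0.31 in WT and from -0.46 to 0.41 in iMSN-D2RKO. The cocaine difference of the 2 genotypes was itself compared, and 0 members and 0% of all genes differed at an adjusted p under 0.05 (246 genes and 0 members at an unadjusted p under 0.05).

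**Figure D4:**
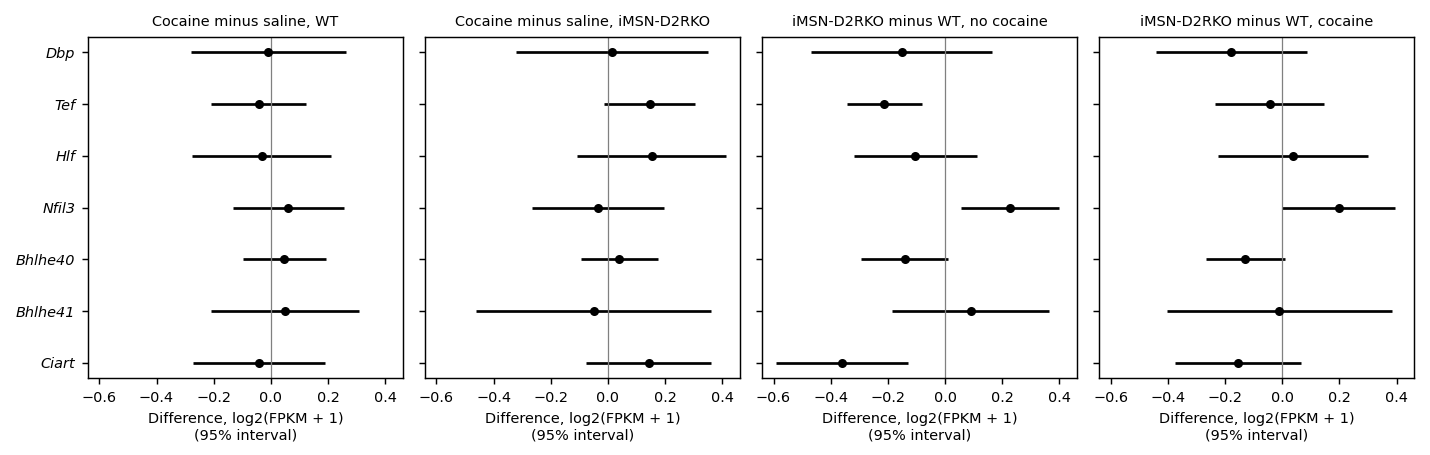
Difference in log2(FPKM + 1) of each gene with its 95% interval, for cocaine minus saline in each genotype and iMSN-D2RKO minus WT without and with cocaine. All intervals of the first 2 panels include 0, and those of Tef, Nfil3 and Ciart in the third and of Nfil3 in the fourth do not, though none passed after adjustment over all genes.

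The rhythm itself was also compared, as the difference of the cosine and sine terms between cocaine and saline. In WT and in iMSN-D2RKO 0% and 0% of all genes and 0 members passed (limma), with 210 and 820 genes at an unadjusted p under 0.05. Nfil3 was at an unadjusted p of 0.0248 in WT and 0.0217 in iMSN-D2RKO (adjusted p = 1 and 0.596), where the differences of the cosine and sine terms, as 1 vector, had a length of 0.33 ± 0.11 and 0.42 ± 0.15, which covers shifts of phase as well as of amplitude. Ciart was at 0.0182 in iMSN-D2RKO (adjusted p = 0.596). At single time points 0 of 35 member comparisons of cocaine and saline passed in WT and 0 of 35 in iMSN-D2RKO, beside 0.00683% and 0.00273% of all such comparisons. At ZT7, 4 h after the injection, the 3 cocaine libraries of WT did not overlap the saline ones for Bhlhe41, Ciart and Tef, which were higher, and for Nfil3, which was lower. At that time point 4.84% of all genes were higher and 4.21% lower without overlap. For Ciart the values were 8.90, 10.01 and 9.93 in saline and 10.2, 12.8 and 11.99 in cocaine, a difference of 0.25 (unadjusted p = 0.314). For Nfil3 they were 2.71, 2.57 and 3.26 and 2.36, 2.21 and 2.09, a difference of -0.25 (unadjusted p = 0.219). In iMSN-D2RKO Nfil3 was lower after cocaine at ZT7 too, at 2.14, 2.19 and 3.21 against 3.84, 3.61 and 3.61 FPKM, a difference of -0.43 (unadjusted p = 0.0409, adjusted p = 0.205).

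The smallest p of Nfil3 in these comparisons was at ZT19 in iMSN-D2RKO, with 5.38, 5.31 and 6.16 FPKM after cocaine and 2.40, 5.60 and 2.40 after saline. The difference was 0.64 (95% interval 0.23 to 1.05, unadjusted p = 0.00291, adjusted p = 0.304). The 2 low saline values are set-apart libraries, and the third, 5.60, lay among the cocaine values. Without the set-apart libraries the difference was 0.0011. In WT at ZT19 leaving out the set-apart libraries left 1 library in each group. The differences were then -0.81 for Tef and 0.88 for Bhlhe41. A test there assumes that the lone libraries vary like the others. The lone cocaine library, replicate 2, had the highest library score of those not set apart, 15.1.

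Did the members differ between the genotypes? Without cocaine, over ZT3 and the saline time points, 0 members and 0.198% of all genes differed at an adjusted p under 0.05 (limma), with 1467 genes and 3 members at an unadjusted p under 0.05. Of the members 5 were lower and 2 higher in iMSN-D2RKO, with a median of -0.14 against 0.011 over all genes. Ciart was lower by the largest amount, -0.36 (95% interval -0.59 to -0.13) (unadjusted p = 0.00336, adjusted p = 0.320). Tef was at -0.21 (95% interval -0.34 to -0.081) (unadjusted p = 0.00241, adjusted p = 0.281), and with the library score as a covariate Tef passed, at -0.20 (adjusted p = 0.0259), as did 0.990% of all genes. Nfil3 was the other way, 0.23 (95% interval 0.054 to 0.40) (unadjusted p = 0.0117, adjusted p = 0.399). With cocaine 0.0478% of all genes and 0 members passed (529 genes at an unadjusted p under 0.05, and Nfil3 of the members). Nfil3 was then at 0.20 (95% interval 0.001 to 0.39) (unadjusted p = 0.0489). Of the 13 other clock genes 0 passed in either case, with 10 lower and 3 higher without cocaine. The rhythm did not differ at an adjusted p under 0.05 for any member or gene, without cocaine (0%, 378 genes at an unadjusted p under 0.05) or with it (0%, 700 genes). Ciart had the smallest p of the members there, 0.0124 unadjusted with cocaine (adjusted p = 0.592).

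At single time points 2 of 77 member comparisons between the genotypes passed, beside 1.77% of all comparisons, and both were at ZT19 after cocaine, where 11.9% of all genes passed. Bhlhe41 fell in iMSN-D2RKO, with 10.5, 9.49 and 9.83 FPKM against 24.5, 21.1 and 25.98 in WT. The difference was -1.18 (95% interval -1.91 to -0.44, adjusted p = 0.0444, limma). Nfil3 rose, with 5.38, 5.31 and 6.16 against 2.25, 4.70 and 3.26 FPKM, a difference of 0.62 (95% interval 0.21 to 1.03, adjusted p = 0.0461, limma). The groups did not overlap for either gene, and of all genes 26.7% were lower and 18.2% higher without overlap. Of the 3 WT libraries there 2 are set apart, and of the 3 iMSN-D2RKO libraries 0. Without the set-apart libraries, which left 1 WT library, the differences were -1.01 (adjusted p = 9.91e-04) and 0.21 (adjusted p = 0.472), beside 20.3% of all genes called. With the library score as a covariate the differences were -0.34 (adjusted p = 0.405) and 0.23 (adjusted p = 0.443). Leaving out any 1 replicate number ended both calls (adjusted p = 0.199, 0.0816 and 0.131 for Bhlhe41 and 0.339, 0.0816 and 0.182 for Nfil3 without replicates 1, 2 and 3), as did testing with no filter on low values (adjusted p = 0.0573 and 0.0597). The 3 cortical markers summed to 45.5 to 147 FPKM in these WT and 157 to 181 in these iMSN-D2RKO libraries, also without overlap. The summed astrocyte markers ran from 294 to 406 FPKM in these WT and from 210.4 to 237 in these iMSN-D2RKO libraries. Over the whole series the astrocyte sum had a median of 365 FPKM in the set-apart libraries and 244 in the others. The part of these markers in the result was not tested.

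For the other members the smallest p between the genotypes was not under the threshold after adjustment with the settings used here. Ciart at ZT19 after cocaine, at -0.69, passed under some alternatives (limma). These were the 6 libraries of the comparison fitted alone (adjusted p = 0.0291) and a filter at a mean of 1 FPKM (adjusted p = 0.0497). It also passed without iMSN-D2RKO saline ZT7 replicate 1 (adjusted p = 0.0361). Over all genes and time points the genotype calls were then 3450, 2937 and 4092, against 2848. Ciart at ZT23 in saline was at 4.58, 3.92 and 4.22 FPKM in iMSN-D2RKO and 5.75, 5.74 and 13.5 in WT, without overlap. The difference was -0.73 (95% interval -1.23 to -0.24, unadjusted p = 0.00444, adjusted p = 1), and 2.81% of all genes were lower without overlap there. At ZT3, where no library is set apart, it was -0.46 (unadjusted p = 0.0695), again without overlap, as 6.52% of all genes were. Dbp at ZT15 after cocaine was at 139.8, 107 and 71.4 against 221, 151 and 178 FPKM, a difference of -0.82 (unadjusted p = 0.0210, adjusted p = 0.142). The lowest of these iMSN-D2RKO values is a set-apart library. Tef at the same point differed by -0.38 (unadjusted p = 0.0392, adjusted p = 0.197). For Bhlhe40 the smallest p was at ZT7 between cocaine and saline in iMSN-D2RKO, 0.39 (unadjusted p = 0.0254, adjusted p = 0.175), and for Hlf there too, 0.54 (unadjusted p = 0.0584, adjusted p = 0.231). The saline side holds replicate 1, the library with the high FPKM sum. Without it the Bhlhe40 difference was 0.30 (unadjusted p = 0.115, adjusted p = 0.787, limma).

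The genes whose profile was most like that of a member were taken by Pearson's r of the 22 group means of log2(FPKM + 1), among genes with a mean of at least 5 FPKM. These are descriptions, since the groups share library properties. Usp2, a deubiquitinase gene known to cycle in many tissues, came first for Dbp. The 3 genes for Dbp were Usp2 (r = 0.94), Ldb1 (r = 0.91) and Grik5 (r = 0.90), and for Tef Cluh (r = 0.92), Crtc1 (r = 0.91) and Pkd1 (r = 0.91). For Hlf they were Bbx (r = 0.90), Peak1 (r = 0.90) and Adam22 (r = 0.88). For Nfil3 they were Mrps6,Slc5a3 (r = 0.79), Dusp14 (r = 0.78) and Slc25a25 (r = 0.77), of which the first is a joint entry of 2 genes. For Bhlhe40 they were Susd6 (r = 0.80), Tsc22d3 (r = 0.77) and Irs2 (r = 0.74), where Tsc22d3 is the glucocorticoid-induced gene GILZ. For Bhlhe41 they were Fam120b (r = 0.92), Mbnl1 (r = 0.92) and Hymai,Plagl1 (r = 0.91), and for Ciart Usp2 (r = 0.80), Dbp (r = 0.78) and Adcy9 (r = 0.77). Dbp and Ciart, which share Usp2, had r = 0.78 with each other, and 0.87 without the set-apart libraries. The paralogues Bhlhe40 and Bhlhe41 had r = 0.081 with and 0.48 without the set-apart libraries, and Hlf and Bhlhe41 0.76 with and 0.033 without the set-apart libraries.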

How the data were processed

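RNA of ventral striatum punches was sequenced by the authors from poly(A) libraries, aligned to mm10 with TopHat and Bowtie2, assembled with Cufflinks and quantified with Cuffnorm (demultiplexing with CASAVA 1.8.2 per the labels). The authors deposited FPKM per gene and library, which were used as they stand, and the 6 ZT3 libraries listed in both series were counted once. No counts were given, so sequencing depth is unknown and no counting interval was computed. A value scaled to the library total moves with the abundant transcripts of that library.

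Of 24138 genes, the 14643 that reached 1 FPKM in any of the 66 libraries were tested on log2(FPKM + 1) with limma 3.58.1 (R 4.3.3, trended prior, Benjamini-Hochberg adjustment over all genes tested or, for time points, over all genes of each contrast, threshold 0.05). Rhythm within a series was tested with JTK_CYCLE, written anew in Python 3.11.15 (numpy 2.4.6, pandas 2.3.3), after removal of at most 1 replicate per gene and time point by Dixon's test (critical value 0.97). The script was tested on simulated data, as was the limma step. The axis of the library score is the leading component of the deviations from group means, over 9578 genes with a mean above 5 FPKM, members left out. It holds 43.6% of the variance within groups. The score is each library's deviation from the mean of all libraries along this axis. It can therefore also hold differences of time, genotype and treatment. Libraries were set apart by a gap in this score, from 15.1 to 44.2.

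The genes named were the 7 members, 13 other clock genes, 4 effector genes, Drd2 as label check, and the 3 genes most like each member. Time points were named with statistics where the adjusted p was under the threshold or was the smallest of a member. Comparisons outside this rule (Nfil3 and Ciart at ZT7, Ciart at ZT3 and ZT19, Tef and Bhlhe41 at ZT19) were chosen after their values were seen. Cortical markers were summed over 3 genes, since 1 gene of that list is not reported here. The members and lists were chosen with earlier results of these data known. Alternatives were another pseudocount, other filters, upper quartile scaling, a replicate block, the library score as a covariate, the set-apart libraries, the ZT3 libraries or each replicate number left out, other thresholds and tests, and, chosen after seeing the data, iMSN-D2RKO saline ZT7 replicate 1 left out. Each group holds 3 libraries. The limma p-values rest on a spread between libraries that is pooled over all libraries of each fit and moderated by the trended prior. In the cosine fits this spread also holds departures of group means from the cosine. Those of JTK_CYCLE rest on ranks of the libraries of a series. The design names 3 animals per time point, and litter, batch and day are not given.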

Additional observations from a re-analysis of the deposited data

How the results depend on the processing

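No difference that passed the test changed sign, but others did. Of the members' 147 differences at single time points 13 changed sign when the set-apart libraries were left out, 14 once the library score was a covariate, and 5 of 112 without iMSN-D2RKO saline ZT7 replicate 1. Between genotypes at ZT19 after cocaine, Dbp went from 0.35 to -0.16 and -0.33 under the first 2 of these, and Hlf from -0.24 to 0.58 and 0.33. Bhlhe40 between genotypes at ZT19 in saline went from -0.15 to 0.28 without the set-apart libraries. Dbp after cocaine at ZT7 in iMSN-D2RKO went from -0.31 to 0.25 without replicate 1 of saline. Of the differences over all time points, 29 of 371 values under the alternatives had the other sign. Without a filter on low values the members that differed between genotypes at single time points went from 2 to 0, and with the library score as a covariate to 1, which was Nfil3 at ZT15 after cocaine. With that covariate the members that differed between genotypes without cocaine went from 0 to 1 (Tef), and without the set-apart libraries those that differed after cocaine at single time points in WT went from 0 to 2, while calls over all genes went from 5 to 1559. Of the members called rhythmic by JTK_CYCLE, WT saline went from 1 to 5 at a threshold of 0.05, to 2 without the set-apart libraries, to 4 with the library score removed, to 3 without the ZT3 libraries and to 2 by limma's F test. WT cocaine went from 1 to 3 with no replicate removed (1069 of all genes), to 4 at a threshold of 0.05, to 4 with the score removed and to 4 by limma's F test. The iMSN-D2RKO saline series went from 1 to 3 at a threshold of 0.05, to 3 with the score removed, to 2 without the ZT3 libraries and to 2 without ZT7 replicate 1, which was chosen after seeing the data. The iMSN-D2RKO cocaine series went from 2 to 0 by limma's F test. The F test was called at an adjusted p under 0.05, whereas the p of JTK_CYCLE was not adjusted over genes. In iMSN-D2RKO cocaine the unadjusted F test p was 4.83e-05 for Ciart and 4.67e-04 for Nfil3 (adjusted p = 0.191 and 0.206, limma). Leaving out each replicate number in turn gave 0 to 1 members in WT saline, 0 to 2 in WT cocaine, 0 to 2 in iMSN-D2RKO cocaine, and 0 genotype differences at single time points throughout. Over all genes JTK_CYCLE then called 642, 208 and 800 in WT saline without replicates 1, 2 and 3. In WT cocaine it called 214, 858 and 494, and in iMSN-D2RKO cocaine 61, 69 and 150. Of the 7 pooled rhythms, Hlf and Bhlhe41 also missed the threshold with time point as a factor (adjusted p = 0.0545 and 0.0647, limma), and Bhlhe41 without the ZT3 libraries (adjusted p = 0.063). The cause was not tested.

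Over all genes the pooled rhythm fell from 7472 calls to 1464 without the set-apart libraries, 1799 with the score as a covariate, and 1601 and 1951 without replicate 1 and replicate 3. Genotype calls without cocaine went from 29 to 145 with the covariate and 51 without the set-apart libraries. With cocaine they went from 7 to 25 and 14. Genotype calls at single time points went from 2848 to 5272, 5083 and, with no filter, 963. Without replicates 1, 2 and 3 they went to 784, 684 and 191. Over all genes JTK_CYCLE called 3370, 2804, 1632 and 603 in WT saline, WT cocaine, iMSN-D2RKO saline and iMSN-D2RKO cocaine at a threshold of 0.05, against 1385, 1096, 372 and 160. Leaving out the set-apart libraries gave 907, 342, 179 and 276, removing the score 1016, 1009, 300 and 394, and leaving out the ZT3 libraries 1760, 1182, 556 and 244. By limma's F test, at an adjusted p under 0.05, 1694 genes were rhythmic in WT saline and 1983 in WT cocaine. There were 2 in iMSN-D2RKO saline and 0 in iMSN-D2RKO cocaine. This threshold is not that of JTK_CYCLE, whose p was not adjusted over genes.

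Replicate numbers did not pair the libraries. Deviations of same-numbered libraries had correlations from -0.77 to 0.61 between cocaine and saline (7 of 30 pairs over 0.1) and from -0.74 to 0.65 between genotypes (14 of 33), and the library correlated best with its own number in 5 and 15 pairs. With a replicate block 7 members passed the pooled rhythm and 2 the genotype comparison at single time points, and no count of members changed.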

Other observations

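Without the set-apart libraries, other genes came closest to several members over the 22 group means, which is a description and no test. For Tef they were Slc35b4 (r = 0.94), Slc24a4 (r = 0.93) and Cipc (r = 0.93), where Cipc encodes an inhibitor of CLOCK. For Nfil3 they were Rpl7l1 (r = 0.87), Hsp90aa1 (r = 0.87) and G3bp1 (r = 0.86), where Hsp90aa1 is an inducible chaperone gene. Usp2 stayed first for Dbp (r = 0.90) and Dbp came first for Ciart (r = 0.87).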
